A study of Mus musculus with 15 samples.

Results

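Smooth muscle cells and pericytes, the mural cells that wrap blood vessels, were followed in the left ventricle through 10 marker genes: Acta2, Myh11, Tagln, Cnn1, Rgs5, Pdgfrb, Cspg4, Notch3, Kcnj8 and Abcc9. The genes were taken by symbol, not by their values, from the deposited counts of 40174 symbols, and all 10 were found. Of these, 9 passed the filter on low counts, as did 17588 genes in all. Tagln did not pass.

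Total RNA was sequenced from left ventricles of C57BL/6 mice aged 2 months. The mutant mice carried point mutations of Rbm20, which encodes a splicing regulator of striated muscle. G-line mice carried the S639G allele and A-line mice the S637A allele, each homozygous (HOM) or heterozygous (HET), and WT mice carried neither. The study asks how both Rbm20 alleles act in the remodelling heart. The labels name no cell type to which the alleles would be restricted, and a bulk ventricle sample mixes all of its cell types.

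The labels name 5 groups of 3 libraries. Replicates 2 and 3 of A-line HOM were identical to replicates 2 and 3 of WT across the 40174 symbols. These 2 libraries were counted once, as WT, so 13 distinct libraries remained: 3 G-line HOM, 3 G-line HET, 1 A-line HOM, 3 A-line HET and 3 WT. Either name could be the true one, so the text also says which calls against WT were lost with the shared libraries as A-line HOM or left out. Total counts ran from 20324529 to 29436407 in G-line HOM, from 23714906 to 28121438 in G-line HET, from 12959087 to 17448328 in A-line HET and from 25279202 to 26549906 in WT libraries, and the A-line HOM library had 17507813. The labels do not say that libraries of a group came from separate mice. The p-values measure the spread between these libraries, which may be technical, and the single A-line HOM library is assumed to vary like the other groups.

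A further set of 3 libraries stood apart from the rest by atrial transcripts. Myl7, the atrial myosin light chain, had 45.8 CPM (counts scaled to the library total and its TMM factor) in G-line HOM replicate 1, 240.1 CPM in A-line HET replicate 3 and 523.9 CPM in WT replicate 2. In the other 10 libraries it had at most 3.43 CPM. These 3 libraries are referred to here as the libraries with atrial transcripts. The 4 atrial markers examined (Sln, Myl7, Myl4 and Bmp10) summed to 122.1 to 1201 CPM in them and to 12.3 to 23.0 CPM in the other 10. Adipocyte markers (5 genes) summed to 18.03 to 57.6 CPM against 0 to 0.971 CPM, and mesothelial markers (5 genes) to 4.35 to 13.7 CPM against 0 to 0.330 CPM.

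Vascular smooth muscle contracts through smooth muscle actin and myosin, whose genes are switched on by serum response factor (SRF) and its cofactor myocardin through DNA motifs called CArG boxes. Pericytes sit on capillaries and are recruited by endothelial PDGF-B through the receptor PDGFRB, while the receptor NOTCH3 signals within mural cells, arterial ones among them. Both cell types carry ATP-sensitive potassium channels built of the pore Kir6.1 (Kcnj8) and the sulfonylurea receptor SUR2 (Abcc9), which relax vessels when they open. SUR2 is also made by heart muscle cells, where it pairs with the pore Kir6.2 (Kcnj11).

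The promoters shown are those of Acta2, Kcnj8 and Abcc9. Acta2 separated mutant from WT libraries once the libraries with atrial transcripts were left out. Kcnj8 and Abcc9 are neighbouring genes on chromosome 6, both called lower in G-line HOM and G-line HET. RefSeq promoters of build GRCm38.p6 were used, each from 250 bases before to 50 bases after the start site and all on the minus strand of the genome, while the counts were made on GRCm39. They lie at chr19:34255324-34255623 for Acta2, chr6:142571565-142571864 for Kcnj8 and chr6:142702225-142702524 for Abcc9. Capitals mark CArG-like boxes, 10-base motifs read on both strands with at most 1 substitution in the core.
Acta2: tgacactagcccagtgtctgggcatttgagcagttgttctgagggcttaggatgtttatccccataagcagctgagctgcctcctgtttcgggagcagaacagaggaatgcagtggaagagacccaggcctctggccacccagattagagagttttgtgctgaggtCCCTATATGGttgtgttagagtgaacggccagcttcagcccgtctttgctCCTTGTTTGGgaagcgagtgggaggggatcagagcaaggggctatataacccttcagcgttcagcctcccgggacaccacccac
Kcnj8: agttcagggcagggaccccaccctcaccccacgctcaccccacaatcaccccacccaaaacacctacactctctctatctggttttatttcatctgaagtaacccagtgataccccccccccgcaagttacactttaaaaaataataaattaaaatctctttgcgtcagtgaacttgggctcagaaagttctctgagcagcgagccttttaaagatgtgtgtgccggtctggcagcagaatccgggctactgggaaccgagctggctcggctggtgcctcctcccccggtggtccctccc
Abcc9: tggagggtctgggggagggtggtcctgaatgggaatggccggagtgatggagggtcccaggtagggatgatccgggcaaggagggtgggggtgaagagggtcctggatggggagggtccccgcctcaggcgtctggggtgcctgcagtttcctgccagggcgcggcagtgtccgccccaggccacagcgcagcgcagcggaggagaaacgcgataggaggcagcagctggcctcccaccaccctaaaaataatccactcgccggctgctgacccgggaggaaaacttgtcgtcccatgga
RefSeq promoters were matched for 7 of the 10 markers: Acta2, Cnn1, Rgs5, Cspg4, Notch3, Kcnj8 and Abcc9. Acta2 alone among the 7 held a CArG-like box, with 2 of them, 84 to 75 and 34 to 25 bases before the start site. A box without substitution was in 0 of the 7. Among all 32851 promoters of this length, 1.629% held an exact box and 9.984% a box with up to 1 substitution. GC content was 54.67% for Acta2, 53.33% for Kcnj8 and 65.67% for Abcc9.

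Levels of the markers differed widely in WT hearts. Per kilobase of exon (lengths from GENCODE M21 on GRCm38), mean WT levels were 158.6 CPM per kb for Rgs5 and 82.4 CPM per kb for Abcc9. Acta2 followed at 36.2, Pdgfrb at 17.2, Kcnj8 at 16.3, Myh11 at 8.27, Notch3 at 3.95, Cspg4 at 2.52 and Cnn1 at 1.09 CPM per kb. WT replicate 2, a library with atrial transcripts, carries much of 2 of these means: without it Myh11 had 4.61 and Cnn1 0.325 CPM per kb. On this scale, with or without it, the pericyte gene Rgs5 and the channel gene Abcc9 stood above every contractile gene.

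In G-line HOM against WT, 3 of 9 tested markers fell (Rgs5, Kcnj8 and Abcc9) and 1 rose (Cspg4), where a call means an adjusted p under 0.05 over all 17588 genes in edgeR's quasi-likelihood test. Over all genes tested, 13.3% were called lower and 13.1% higher in that comparison. Such shares were counted for calls only, so counts at an unadjusted p have no share over all genes beside them. In G-line HET against WT, Kcnj8 and Abcc9 fell, with 3.54% of all genes called lower and 3.97% higher. In A-line HET against WT, Abcc9 fell, with 3.97% of all genes called lower and 3.99% higher. In A-line HOM against WT, with its 1 library, 0 of 9 fell and 0 rose, with 1.86% of all genes called lower and 2.82% higher. At an unadjusted p under 0.05, 3 markers were lower in that comparison by edgeR (Rgs5, Kcnj8 and Abcc9), and DESeq2 called 1 of 9 (Abcc9).

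The median log2 fold change of the 9 markers was -0.04 in G-line HOM, -0.36 in G-line HET, -0.41 in A-line HOM and 0.09 in A-line HET against WT. Over all genes tested the medians were 0.01, -0.01, -0.01 and 0.02 in the same comparisons. Without the libraries with atrial transcripts the markers' median was -0.16 in G-line HOM, 0.115 in G-line HET, -0.22 in A-line HOM and -0.097 in A-line HET, so its sign turned in both HET groups. With the shared libraries as A-line HOM it was 0.055 in A-line HOM, and its sign turned in no other group. All 4 comparisons share the WT libraries. In a bulk sample, fewer mural cells and less of a transcript per cell cannot be told apart.

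**Figure D1:**
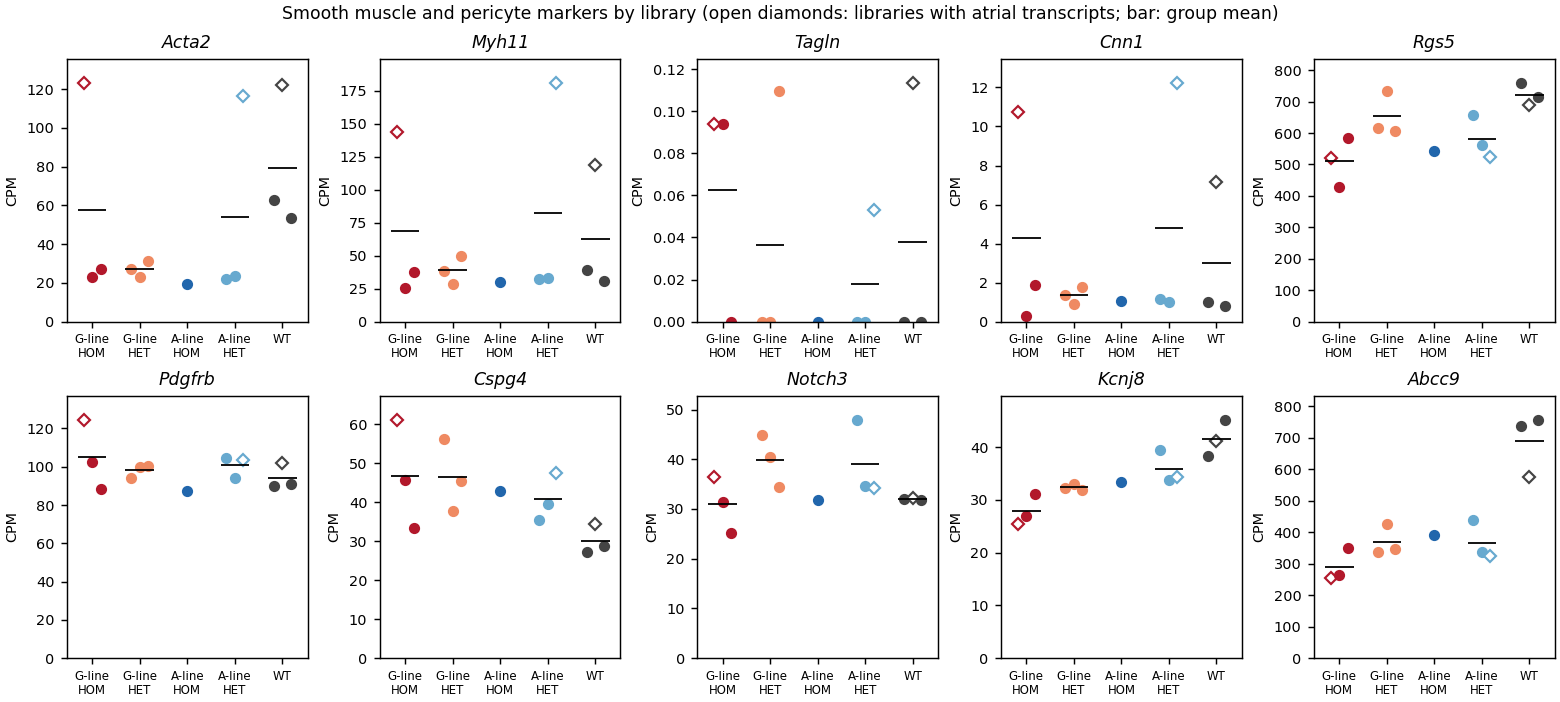
Level of each of the 10 markers in CPM (vertical axis, linear, from 0) by group (horizontal axis), with 1 point per library and a bar at the group mean where there is more than 1 library. Open diamonds are the 3 libraries with atrial transcripts, which hold the highest Acta2, Myh11 and Cnn1, while Abcc9 in every mutant library lies below every WT library.

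Of the contractile genes, Acta2 encodes smooth muscle alpha-actin, the main actin of the smooth muscle contractile apparatus. It had 123.2, 22.9 and 27.0 CPM in G-line HOM, 26.9, 23.0 and 31.0 CPM in G-line HET, 19.5 CPM in A-line HOM and 22.1, 23.4 and 116.6 CPM in A-line HET libraries, against 62.8, 122.2 and 53.3 CPM in WT libraries. The highest value of G-line HOM, A-line HET and WT in each case came from the library with atrial transcripts. The other 8 mutant libraries all lay below the other 2 WT libraries. Over all 13 libraries, no Acta2 difference from WT was called. Its log2 fold change was -0.45 ± 0.83 (SE, adjusted p = 0.74) in G-line HOM, -1.56 ± 0.86 (0.34) in G-line HET, -2.02 ± 1.37 (0.493) in A-line HOM and -0.55 ± 0.84 (0.774) in A-line HET, each an adjusted p from edgeR's quasi-likelihood test.

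With the 3 libraries with atrial transcripts left out, Acta2 fell in all 4 mutant groups. It averaged 25.0 ± 2.83 CPM in G-line HOM (SD, n = 2), 27.0 ± 4.01 CPM in G-line HET (n = 3), 19.5 CPM in the A-line HOM library and 22.8 ± 0.973 CPM in A-line HET (n = 2), against 58.1 ± 6.69 CPM in WT (n = 2). The log2 fold change against WT was -1.21 ± 0.15 in G-line HOM (adjusted p = 0.000383, edgeR quasi-likelihood test) and -1.11 ± 0.13 in G-line HET (adjusted p = 0.000821). For the A-line it was -1.57 ± 0.20 in HOM (adjusted p = 0.00199) and -1.35 ± 0.15 in HET (adjusted p = 0.00114). In this fit 10.6% of 16813 genes were called lower in G-line HOM, 4.07% in G-line HET, 2.44% in A-line HOM and 1.99% in A-line HET. From the 13 libraries, leaving out any 1 of the groups compared gave no Acta2 call. Of the remaining WT libraries, replicate 1, at 62.8 CPM, has only the WT name, and replicate 3, at 53.3 CPM, is shared with A-line HOM. With both shared libraries counted as A-line HOM and all libraries kept, the log2 fold change was -0.12 ± 1.30 in G-line HOM. With them left out it was -0.12 ± 1.26. In the other 3 mutant groups Acta2 was not called under these 2 treatments. Both treatments keep other libraries with atrial transcripts, and with those kept Acta2 was not called under the WT name either. They therefore cannot show whether the Acta2 calls hold under another name for replicate 3. The fit without the libraries with atrial transcripts was not repeated with replicate 3 renamed or removed.

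Myh11, the smooth muscle myosin heavy chain, had 144.0, 25.7 and 37.5 CPM in G-line HOM, 38.0, 28.9 and 49.7 CPM in G-line HET, 29.9 CPM in A-line HOM and 32.6, 32.8 and 181.1 CPM in A-line HET libraries, against 39.4, 118.5 and 30.7 CPM in WT libraries. The 3 high values are again the libraries with atrial transcripts, and the remaining groups overlap, save that the A-line HOM library lies just under the lowest WT. No difference from WT was called with all libraries or without those 3. Without them the log2 fold change was -0.14 ± 0.26 in G-line HOM, 0.15 ± 0.24 in G-line HET, -0.22 ± 0.33 in A-line HOM and -0.10 ± 0.27 in A-line HET.

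Cnn1 encodes calponin, an actin-binding protein of differentiated smooth muscle. It had 10.8, 0.283 and 1.88 CPM in G-line HOM, 1.36, 0.907 and 1.76 CPM in G-line HET, 1.03 CPM in A-line HOM and 1.18, 0.991 and 12.2 CPM in A-line HET libraries, against 0.988, 7.15 and 0.792 CPM in WT libraries. Outside the 3 libraries with atrial transcripts no library passed 1.88 CPM, and the lowest value rests on 6 reads. No Cnn1 difference from WT was called with or without those 3 libraries.

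Tagln, which encodes transgelin (SM22), another actin-binding protein of smooth muscle, had 3, 2 and 0 counts in G-line HOM, 0, 0 and 3 in G-line HET, 0 in A-line HOM and 0, 0 and 1 in A-line HET libraries, against 0, 3 and 0 counts in WT libraries. That is 12 reads over 13 libraries, with 8 libraries at 0, while Acta2 had 16277 reads and Myh11 18667. In RefSeq GRCm38.p6 Tagln overlaps Pcsk7 on the opposite strand, over 4 of the 5 exons of its longest transcript. How the counting treated strand and overlapping genes is not stated in any source read here, and whether either bears on the Tagln count was not tested. No level of Tagln is therefore read from these counts.

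**Figure D2:**
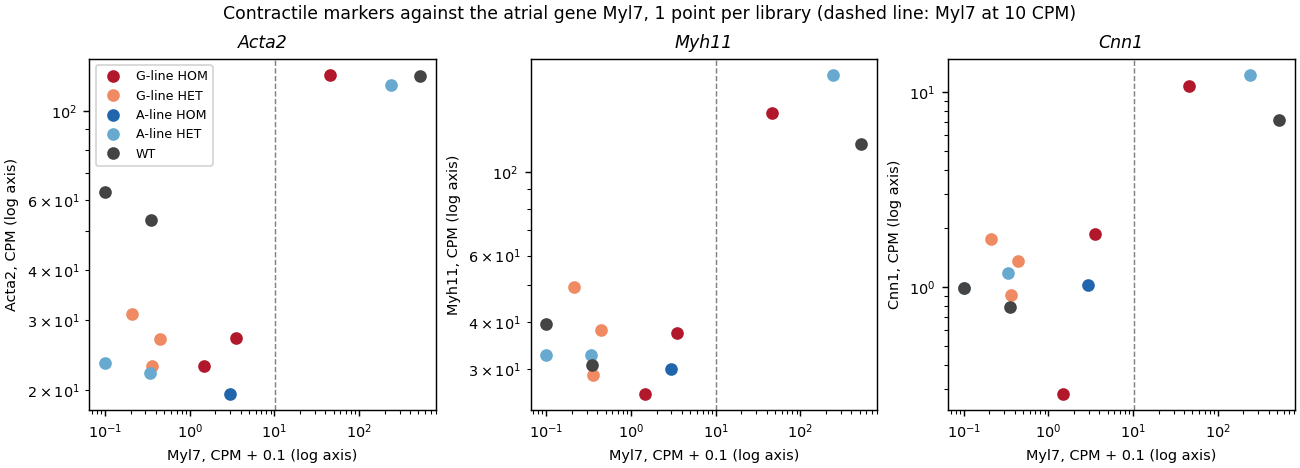
Levels of Acta2, Myh11 and Cnn1 in CPM (vertical axes, log scale) against Myl7 in CPM plus 0.1 (horizontal axes, log scale), 1 point per library, coloured by group, with a dashed line at 10 CPM of Myl7. The 3 libraries right of the line hold the highest level of each contractile gene, and left of it only Acta2 sets both WT libraries above all mutant libraries.

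Expressed within a library, Acta2 counts per Myh11 count were 0.856, 0.892 and 0.719 in G-line HOM, 0.707, 0.797 and 0.625 in G-line HET, 0.653 in A-line HOM and 0.676, 0.715 and 0.644 in A-line HET, against 1.59, 1.03 and 1.74 in WT. All 10 mutant libraries, including both mutant libraries with atrial transcripts, lay below all 3 WT libraries. The ratio averaged 0.728 ± 0.0911 in mutant libraries (SD, n = 10) and 1.45 ± 0.373 in WT libraries (n = 3), a log2 difference of the means of their log2 ratios of -0.97. With the shared libraries as A-line HOM the log2 difference was -0.99 but the groups overlapped. With them left out it was -1.14, against the 1 WT library that remained. The ratio was chosen after the values were seen and is given without a test.

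Other contractile genes were examined as a list of 17, all tested: Smtn, Lmod1, Mylk, Myl9, Tpm2, Cald1, Actg2, Synpo2, Ppp1r14a, Itga8, Filip1l, Pcp4l1, Nrip2, Map3k7cl, Rasl12, Sncg and Flna. In G-line HOM against WT 2 rose and 3 fell, with a list median of 0.08 on the log2 scale. Over all genes, 13.1% rose and 13.3% fell there. These shares, and those given above for the other comparisons with WT, apply to every list below. Pcp4l1, which encodes a small IQ-motif protein, fell in all 4 mutant groups, with 31.6, 38.8 and 44.6 CPM in G-line HOM, 46.0, 51.2 and 48.2 CPM in G-line HET, 48.2 CPM in A-line HOM and 44.8, 36.5 and 48.7 CPM in A-line HET, against 77.3, 79.5 and 80.5 CPM in WT libraries. Every mutant library lay below every WT library. Its log2 fold change was -1.05 ± 0.12 in G-line HOM (adjusted p = 5.25e-05), -0.71 ± 0.12 in G-line HET (0.00307), -0.72 ± 0.18 in A-line HOM (0.0367) and -0.87 ± 0.12 in A-line HET (0.000892) in edgeR's quasi-likelihood test.

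Smtn, which encodes smoothelin of the contractile smooth muscle cell, had 48.7, 40.8 and 40.6 CPM in G-line HOM, against 65.1, 68.7 and 69.0 CPM in WT libraries, with a log2 fold change of -0.64 ± 0.10 (adjusted p = 0.000311). Synpo2, the actin-bundling synaptopodin 2, fell by 0.42 ± 0.11 on the log2 scale (adjusted p = 0.0132), and Cald1, caldesmon, rose by 0.70 ± 0.17 (adjusted p = 0.00898). These genes are not exclusive to smooth muscle; Synpo2 and Smtn are also known from heart muscle. In the other comparisons with WT, 1 gene of the list fell in G-line HET and in A-line HET (Pcp4l1) and 2 in A-line HOM (Pcp4l1 and Synpo2). None of the 17 rose in those comparisons by edgeR or DESeq2, and at an unadjusted p under 0.05 edgeR had 1 higher, in G-line HET. Summed over the list, the 3 libraries with atrial transcripts had 1010 to 1182 CPM and the other 10 had 655.6 to 790.2 CPM.

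SRF and its cofactors were examined as 9 genes (Srf, Myocd, Mrtfa, Mrtfb, Klf4, Elk1, Elk3, Elk4 and Fhl2). Myocd, which encodes the SRF cofactor myocardin of heart and smooth muscle, rose in all 4 mutant groups: it had 206.8, 219.1 and 226.7 CPM in G-line HOM, 230.8, 245.4 and 217.4 CPM in G-line HET, 243.5 CPM in A-line HOM and 232.5, 223.3 and 237.4 CPM in A-line HET, against 167.1, 123.1 and 152.4 CPM in WT libraries. Every mutant library lay above every WT library. Its log2 fold changes were 0.56 ± 0.10 (adjusted p = 0.00118), 0.65 ± 0.10 (0.00187), 0.72 ± 0.14 (0.00991) and 0.65 ± 0.10 (0.00198) in the same order by edgeR's quasi-likelihood test. Elk1, an SRF partner of the ternary complex factor family, fell by 0.63 ± 0.15 on the log2 scale in G-line HOM (adjusted p = 0.00652). In G-line HOM, 1 of the 9 rose and 1 fell. Fhl2, a LIM-domain cofactor, also rose in G-line HET (0.54 ± 0.15, adjusted p = 0.0423), which made 2 higher there, against 1 higher in A-line HOM and 1 in A-line HET.

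Among the pericyte and signalling markers, Rgs5 encodes a regulator of G-protein signalling that is abundant in pericytes. It had 519.3, 429.6 and 585.3 CPM in G-line HOM, 617.4, 734.9 and 606.5 CPM in G-line HET, 541.6 CPM in A-line HOM and 656.4, 563.1 and 523.8 CPM in A-line HET libraries, against 759.4, 690.3 and 713.5 CPM in WT libraries. All G-line HOM and A-line libraries lay below all WT libraries, and G-line HET overlapped WT. The log2 fold change was -0.50 ± 0.12 in G-line HOM (adjusted p = 0.0084, edgeR quasi-likelihood test), where the mean level fell by 29.1%. It was -0.14 ± 0.12 in G-line HET (0.551), -0.41 ± 0.18 in A-line HOM (0.226) and -0.31 ± 0.12 in A-line HET (0.151), none of them called. For G-line HOM, the adjusted p was 0.0962 with the shared libraries as A-line HOM and 0.0615 with them left out.

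Cspg4 encodes the proteoglycan NG2 of pericyte surfaces. It had 61.2, 45.6 and 33.4 CPM in G-line HOM, 56.3, 37.7 and 45.5 CPM in G-line HET, 43.0 CPM in A-line HOM and 35.5, 39.7 and 47.6 CPM in A-line HET libraries, against 27.3, 34.3 and 28.7 CPM in WT libraries. Of the 10 mutant libraries, 9 lay above every WT library, and G-line HOM replicate 3 overlapped WT. Cspg4 rose in G-line HOM with a log2 fold change of 0.64 ± 0.21 (adjusted p = 0.0436, edgeR quasi-likelihood test), a call lost in 10 of 15 alternatives. Among them are the fits without the libraries with atrial transcripts (adjusted p = 0.0833), with the shared libraries as A-line HOM (0.169) and with them left out (0.154). The other log2 fold changes were 0.63 ± 0.21 in G-line HET (0.0984), 0.51 ± 0.29 in A-line HOM (0.388) and 0.44 ± 0.21 in A-line HET (0.25). The G-line HET difference was called by DESeq2 (adjusted p = 0.0234) and without the libraries with atrial transcripts (0.73, adjusted p = 0.0258).

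Pdgfrb, the receptor for PDGF-B on pericytes and fibroblasts, had 124.7, 102.4 and 88.6 CPM in G-line HOM, 93.9, 99.7 and 100.6 CPM in G-line HET, 87.6 CPM in A-line HOM and 104.4, 94.2 and 103.5 CPM in A-line HET libraries, against 90.1, 102.0 and 90.8 CPM in WT libraries. The groups overlapped, save the A-line HOM library just under the lowest WT, and no difference was called: the log2 fold changes ran from -0.11 ± 0.16 in A-line HOM to 0.16 ± 0.11 in G-line HOM. Cspg4 counts per Pdgfrb count were 0.340 to 0.599 in the 10 mutant libraries and 0.303 to 0.336 in the 3 WT libraries. The groups did not overlap, by a narrow gap, and this ratio too was chosen after the values were seen and has no test. Its log2 difference was 0.47, also with the shared libraries as A-line HOM, and 0.54 with them left out.

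Notch3, the Notch receptor of mural cells, had 36.4, 31.5 and 25.3 CPM in G-line HOM, 44.9, 40.5 and 34.4 CPM in G-line HET, 31.8 CPM in A-line HOM and 48.0, 34.7 and 34.2 CPM in A-line HET libraries, against 32.0, 32.2 and 31.7 CPM in WT libraries. All HET libraries of both lines lay above the narrow WT range, and the HOM groups overlapped it. No difference was called, with log2 fold changes of -0.04 ± 0.15 in G-line HOM (adjusted p = 0.876), 0.32 ± 0.15 in G-line HET (0.221), -0.01 ± 0.21 in A-line HOM (0.993) and 0.28 ± 0.15 in A-line HET (0.297) by edgeR.

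A list of 16 other pericyte genes, all tested, held 2 that rose and 4 that fell in G-line HOM, with a median of -0.19 (log2). Over all genes, 13.1% rose and 13.3% fell there. Among the list's genes were Mcam, Anpep, Vtn, Higd1b, Ndufa4l2, Cox4i2, Colec11, P2ry14, Gucy1a1, Gucy1b1, Ednra, Tbx18 and Foxs1. Vtn, the secreted protein vitronectin, had 9.48, 10.9 and 11.6 CPM in G-line HOM against 25.4, 28.2 and 31.4 CPM in WT libraries, a log2 fold change of -1.42 ± 0.19 (adjusted p = 0.000122). P2ry14, a receptor for UDP-sugars, had 1.81, 2.12 and 3.48 CPM in G-line HOM against 7.21, 7.38 and 6.63 CPM in WT libraries, a log2 fold change of -1.53 ± 0.27 (adjusted p = 0.000772). In both genes every G-line HOM library lay below every WT library.

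Colec11, a collectin, fell by 0.63 ± 0.17 on the log2 scale in G-line HOM (adjusted p = 0.0144). Foxs1, a forkhead transcription factor of mural cells, moved the other way, with 4.94, 4.19 and 3.05 CPM in G-line HOM against 1.37, 1.098 and 1.501 CPM in WT libraries and a log2 fold change of 1.62 ± 0.35 (adjusted p = 0.0032). In G-line HET 1 rose (Ednra, the endothelin A receptor) and 1 fell (P2ry14) by edgeR, and DESeq2 also called Steap4 and Vtn lower there. Vtn had 14.7, 21.4 and 21.5 CPM in G-line HET, below every WT library. In A-line HOM and A-line HET 0 of 16 were called by edgeR or DESeq2. At an unadjusted p under 0.05 edgeR had 2 higher and 2 lower in A-line HOM and 2 lower in A-line HET. Mcam, a surface adhesion molecule of mural and endothelial cells, averaged 50.4 ± 13.5 CPM in G-line HOM and 41.7 ± 3.35 CPM in WT (SD, n = 3 each) and was not called.

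Of 6 PDGF genes other than Pdgfrb (Pdgfa, Pdgfb, Pdgfc, Pdgfd, Pdgfra and Pdgfrl), 2 rose and 1 fell in G-line HOM. Pdgfc, a ligand of the alpha receptor, had 8.16, 11.03 and 9.63 CPM in G-line HOM against 2.36, 3.07 and 1.88 CPM in WT libraries, with no overlap and a log2 fold change of 1.97 ± 0.25 (adjusted p = 9.04e-05). Pdgfrl, a PDGF-receptor-like gene, rose by 2.37 ± 0.53 (adjusted p = 0.00814), and Pdgfa, also a ligand, fell by 0.65 ± 0.11 (adjusted p = 0.000788) on the log2 scale. In A-line HET 1 of the 6 rose (Pdgfc) and 2 fell (Pdgfa and Pdgfd) by edgeR, and in A-line HOM 1 rose (Pdgfc). In G-line HET 0 of 6 were called by edgeR or DESeq2, with 3 at an unadjusted p under 0.05 by edgeR. DESeq2 also called Pdgfra higher in G-line HOM and A-line HET.

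Of 22 Notch pathway genes other than Notch3, 2 rose and 1 fell in G-line HOM, both below the shares of 13.1% and 13.3% over all genes. Heyl, a Notch target expressed in mural cells, had 28.6, 26.2 and 26.0 CPM in G-line HOM, 27.7, 24.3 and 29.3 CPM in G-line HET, 19.8 CPM in A-line HOM and 22.5, 23.8 and 22.4 CPM in A-line HET, against 17.4, 17.3 and 16.3 CPM in WT libraries. All mutant libraries lay above all WT libraries. Its log2 fold change was 0.67 ± 0.10 in G-line HOM (adjusted p = 0.000186), 0.67 ± 0.09 in G-line HET (0.000785) and 0.43 ± 0.10 in A-line HET (0.0133), and it was not called in A-line HOM, where 0 of the 22 were called by either tool or had an unadjusted p under 0.05 by edgeR. Adam10, a protease that cleaves Notch receptors, rose by 0.27 ± 0.08 (adjusted p = 0.0299) and Jag2, a Notch ligand, fell by 0.75 ± 0.23 (adjusted p = 0.0282) in G-line HOM on the log2 scale.

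Of the channel genes, Abcc9 gave the most widely shared difference among the markers. Abcc9 had 253.9, 264.3 and 348.2 CPM in G-line HOM, 335.9, 427.4 and 346.6 CPM in G-line HET, 392.0 CPM in A-line HOM and 439.1, 336.3 and 325.1 CPM in A-line HET libraries, against 737.1, 574.6 and 757.6 CPM in WT libraries. Every mutant library lay below every WT library. The mean level fell by 58.1% in G-line HOM, with a log2 fold change of -1.26 ± 0.16 (adjusted p = 9.98e-05, edgeR quasi-likelihood test). It fell by 46.4% in G-line HET (-0.90 ± 0.16, adjusted p = 0.00385) and it fell by 46.8% in A-line HET (-0.91 ± 0.16, adjusted p = 0.00357). In A-line HOM the log2 fold change was -0.82 ± 0.23 (adjusted p = 0.0637), which was not called, and DESeq2 called it (adjusted p = 0.013).

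For Abcc9 in G-line HOM, all 15 alternatives kept the call. With the shared libraries as A-line HOM the adjusted p was 0.03 in G-line HOM, 0.209 in G-line HET and 0.34 in A-line HET, at log2 fold changes of -1.35 ± 0.29, -0.99 ± 0.29 and -1.01 ± 0.29 against the 1 library left in WT. With them left out the adjusted p was 0.00288 in G-line HOM, 0.0414 in G-line HET and 0.0452 in A-line HET. Without the libraries with atrial transcripts all 4 differences were called, A-line HOM included (-0.93 ± 0.21, adjusted p = 0.0322). A property of the libraries separated the same groups: mitochondrial ribosomal RNA (mt-Rnr1 and mt-Rnr2) took 10.8 to 13.5% of all counts in G-line HOM, 15.4 to 16.7% in G-line HET, 15.1% in the A-line HOM library and, for A-line HET, 13.2 to 17.1%, against 20.2 to 23.4% in WT libraries. Its part in this and the other differences from WT was not tested.

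Kcnj8, the pore gene beside Abcc9 on chromosome 6, had 25.5, 27.0 and 31.0 CPM in G-line HOM, 32.3, 33.1 and 31.8 CPM in G-line HET, 33.3 CPM in A-line HOM and 39.5, 33.8 and 34.4 CPM in A-line HET libraries, against 38.3, 41.1 and 45.2 CPM in WT libraries. Only A-line HET replicate 1 reached into the WT range. Kcnj8 fell in G-line HOM, by 33.1% (log2 fold change -0.58 ± 0.10, adjusted p = 0.000686), and in G-line HET, by 22.1% (-0.36 ± 0.10, adjusted p = 0.0392). The G-line HET call was lost in 11 of 15 alternatives, among them the shared libraries as A-line HOM (adjusted p = 0.542) or left out, and the G-line HOM call in 2: the shared libraries as A-line HOM (adjusted p = 0.0997) or left out (0.0508). The log2 fold change was -0.32 ± 0.14 in A-line HOM (0.244) and -0.21 ± 0.10 in A-line HET (0.227), neither called.

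Abcc9 counts per Kcnj8 count were 9.45 to 12.9 in the 10 mutant libraries and 13.97 to 19.2 in the 3 WT libraries, without overlap. The mean ratio was 10.8 ± 1.06 in mutant libraries and 16.7 ± 2.64 in WT libraries (SD, n = 10 and n = 3), so Abcc9 was lower relative to Kcnj8 as well. The log2 difference was -0.63, -0.76 with the shared libraries as A-line HOM and -0.85 with them left out. The ratio was chosen after the values were seen and has no test.

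**Figure D3:**
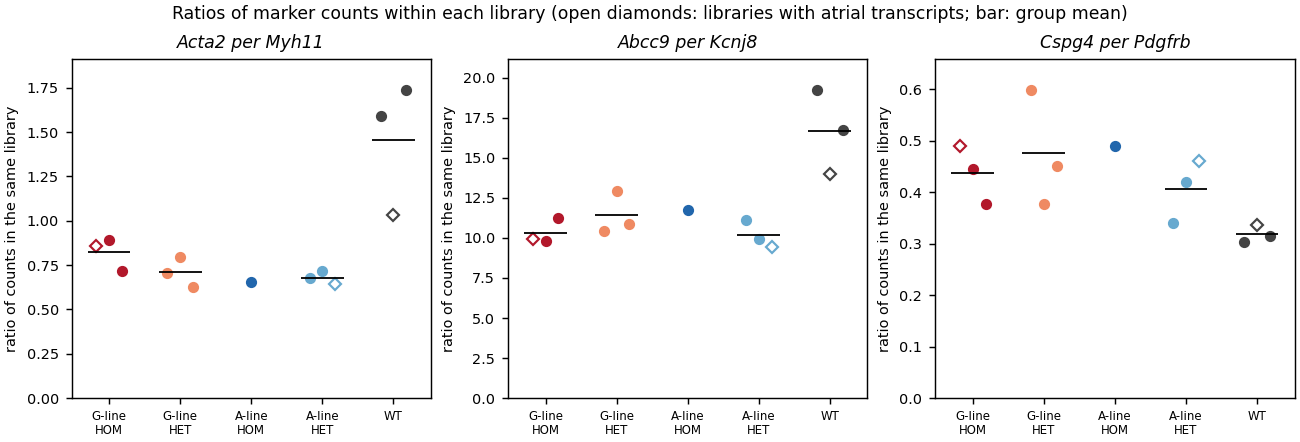
Ratios of counts within each library (vertical axes, linear, from 0) for Acta2 per Myh11, Abcc9 per Kcnj8 and Cspg4 per Pdgfrb by group, with 1 point per library, a bar at the group mean and open diamonds for the libraries with atrial transcripts. The first ratio is 0.625 to 0.892 in mutant and 1.03 to 1.74 in WT libraries, the Abcc9 ratio is lower and the Cspg4 ratio higher in all mutant libraries.

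The other 2 subunit genes of ATP-sensitive potassium channels both fell in G-line HOM. Kcnj11, the Kir6.2 pore of heart muscle, had 77.8, 73.2 and 60.3 CPM in G-line HOM against 97.4, 85.5 and 95.9 CPM in WT libraries (log2 fold change -0.40 ± 0.12, adjusted p = 0.0227). Abcc8, the receptor SUR1, had 25.3, 25.2 and 17.8 CPM in G-line HOM against 29.2, 35.0 and 32.5 CPM in WT libraries (-0.50 ± 0.15, adjusted p = 0.0266). Neither gene's G-line HOM libraries overlapped WT. Neither gene was called by edgeR in G-line HET, A-line HOM or A-line HET, with 1 at an unadjusted p under 0.05, in G-line HET, and DESeq2 called Abcc8 there.

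Since heart muscle cells also express Abcc9, cardiomyocyte markers are given beside it. In G-line HOM 7 of 11 fell, with a median of -0.41 (log2), and none rose. Atp2a2, the calcium pump of the sarcoplasmic reticulum, fell by 1.32 ± 0.17 on the log2 scale (adjusted p = 0.000102), and Ckm, muscle creatine kinase, fell by 1.69 ± 0.19 (adjusted p = 7.57e-05). The 11 markers summed to 46733 to 50691 CPM in G-line HOM, 60683 to 65740 CPM in G-line HET, 54865 CPM in A-line HOM and 49212 to 63700 CPM in A-line HET, against 66323 to 73599 CPM in WT libraries. In G-line HET 0 of 11 were called by edgeR (1 higher and 4 lower at an unadjusted p under 0.05) and 2 fell by DESeq2. In A-line HOM 1 fell by edgeR and 3 by DESeq2, and in A-line HET 3 fell by edgeR and 4 by DESeq2. The calls of this list that were lost with the shared libraries moved or left out are given below. The part of heart muscle in the Abcc9 and Kcnj8 differences was not tested.

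Fibroblast and endothelial markers, whose cells share genes and location with pericytes, are given beside Cspg4 and Rgs5. Of 10 fibroblast markers 6 rose in G-line HOM (median 1.120, log2), among them Pcolce, an enhancer of procollagen processing (1.90 ± 0.19, adjusted p = 4.37e-05). Their sum was 2310 to 3217 CPM in G-line HOM, 1477 to 2483 CPM in G-line HET, 1725 CPM in A-line HOM and 1544 to 2455 CPM in A-line HET, against 1013 to 1751 CPM in WT libraries. Of 8 activated fibroblast markers 6 rose in G-line HOM, among them Postn, periostin (2.96 ± 0.53, adjusted p = 0.00341). Of 13 endothelial markers 1 fell in G-line HOM by edgeR, the receptor gene Tie1 (-0.43 ± 0.14, adjusted p = 0.0345), and none rose. DESeq2 also called Vwf higher there (1.37 ± 0.47 by edgeR, adjusted p = 0.0633). Emcn fell in G-line HET (-0.57 ± 0.12, adjusted p = 0.00943) and A-line HET (-0.47 ± 0.12, 0.025), and Kdr in G-line HET (-0.66 ± 0.18, 0.0467). Endothelial sums were 973.9 to 1368 CPM in G-line HOM, 878.7 to 1106 CPM in G-line HET, 966.7 CPM in A-line HOM and 933.0 to 1172 CPM in A-line HET, against 1137 to 1180 CPM in WT. In G-line HOM, macrophage (8 tested), Schwann cell (4), erythroid (5), atrial (3), adipocyte (4) and mesothelial (5) markers held no gene called by edgeR, with 1 macrophage gene lower and 3 erythroid genes higher at an unadjusted p under 0.05. DESeq2 called 2 erythroid genes there. Several of the fibroblast and activated fibroblast calls were lost with the shared libraries as A-line HOM, as listed below. The part of these cell types in the marker differences was not tested.

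**Figure D4:**
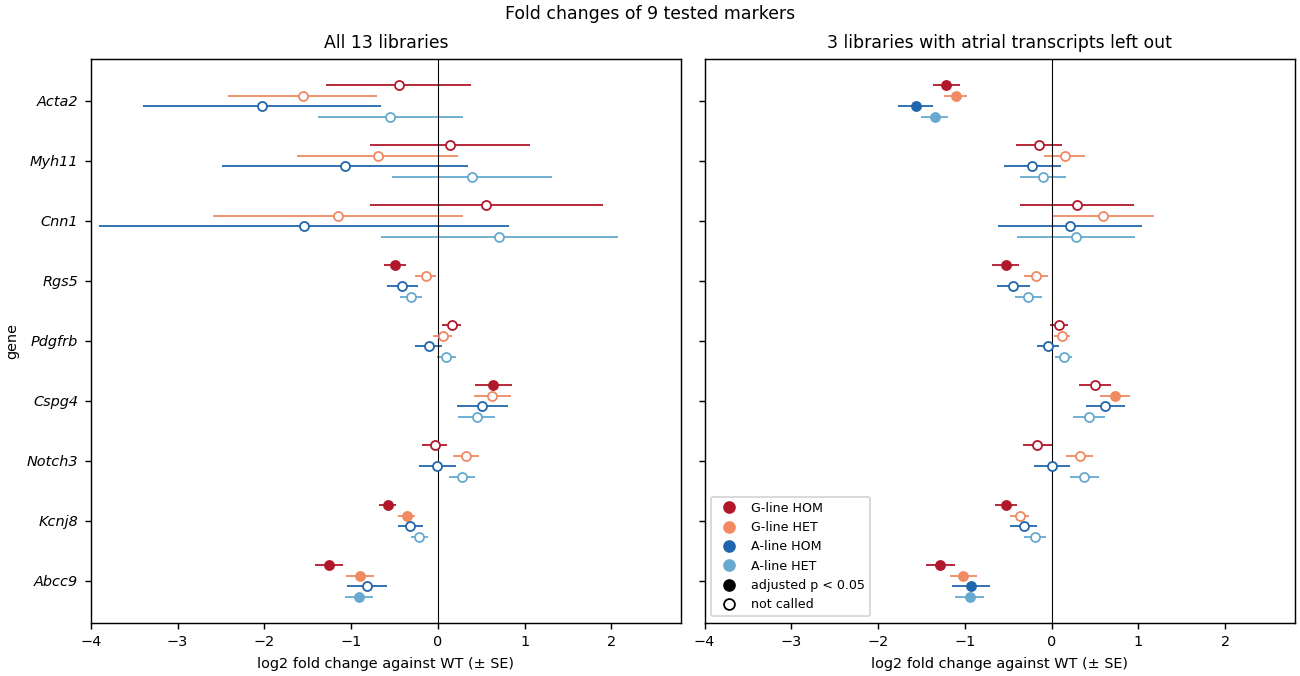
Log2 fold change against WT ± SE (horizontal axes) of the 9 tested markers (vertical axis) in the 4 mutant groups, with all 13 libraries on the left and without the 3 libraries with atrial transcripts on the right. Filled points have an adjusted p under 0.05. Abcc9 is negative in all groups on both sides, and Acta2 is called only on the right, at -1.11 to -1.57.

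Of the other genes named for G-line HOM against WT, Pcp4l1, Smtn, Vtn, P2ry14, Pdgfa, Heyl, Atp2a2, Ckm and Postn kept their calls in all 15 alternatives, the shared libraries as A-line HOM included. With those libraries as A-line HOM the calls were lost for Pdgfc, Pcolce, Elk1, Pdgfrl, Cald1, Tpm2, Kcnj11, Foxs1, Abcc8, Synpo2, Jag2, Tie1, Myocd, Adam10 and Colec11. Their log2 fold changes kept the same sign. With the shared libraries left out, Pdgfc and Pcolce were called and the others were not. Without the libraries with atrial transcripts, Colec11 alone of these genes lost its call (adjusted p = 0.0777). The list counts for G-line HOM hold further calls. With the shared libraries as A-line HOM, Dcn, Col1a1, Col1a2, Cilp, Cthrc1, Thbs4, Ltbp2, Myh6, Myl3, Ryr2, Pln, Steap4 and Tbx18 were not called. Of these, Dcn, Cilp, Ltbp2 and Myl3 were called with the shared libraries left out. Tcf21, Mfap5, Meox1 and Tnni3 were called under both treatments. Without the libraries with atrial transcripts, Col1a1 and Thbs4 were not called.

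In G-line HET, A-line HOM and A-line HET against WT, the calls named above on Pcp4l1, Synpo2, Myocd, Fhl2, Ednra, P2ry14, Pdgfa, Pdgfc, Pdgfd, Heyl, Emcn and Kdr were all lost with the shared libraries as A-line HOM or left out. The adjusted p ran from 0.0525 for Pcp4l1 in A-line HET to 0.991 for Myocd in A-line HOM. Without the libraries with atrial transcripts Ednra (adjusted p = 0.0727) and, at the threshold itself, P2ry14 (0.05) were lost in G-line HET. In A-line HET the same fit lost Heyl (0.0649), Pdgfa (0.104), Pdgfd (0.0835) and Emcn (0.177). The cardiomyocyte calls counted in A-line HOM (Atp2a2) and A-line HET (Atp2a2, Myl3 and Tnnc1) were lost under both treatments of the shared libraries. Tnnc1 in A-line HET was also lost without the libraries with atrial transcripts (0.123).

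Between mutant groups, 0 of 9 markers were called by edgeR. In G-line HOM against G-line HET, 6.22% of all genes were called higher and 8.42% lower. The share of all genes at an unadjusted p under 0.05 was not counted. At that threshold 4 of the markers differed by edgeR. These were Rgs5 (-0.35 ± 0.12, adjusted p = 0.0697), Notch3 (-0.36 ± 0.15, 0.119), Kcnj8 (-0.22 ± 0.10, 0.153) and Abcc9 (-0.36 ± 0.16, 0.143), all lower in G-line HOM, and DESeq2 called Rgs5 (adjusted p = 0.0389). In A-line HET against G-line HET, 0.0114% of all genes were called higher and 0.0171% lower, and 0 of the markers had an unadjusted p under 0.05 or a DESeq2 call. Abcc9 differed there by -0.01 ± 0.16 (adjusted p = 0.981).

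Across the 13 libraries the markers fell into sets that varied together. The Pearson correlation of log2 CPM was 0.982 between Myh11 and Cnn1 and 0.886 between Acta2 and Myh11. It was 0.889 between Kcnj8 and Abcc9, 0.835 between Rgs5 and Abcc9 and -0.850 between Cspg4 and Abcc9, while Myh11 and Abcc9 had -0.188. These values describe 13 points that share groups, sequencing depth and, for the contractile genes, the 3 libraries with atrial transcripts.

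The genes most like the mean of the 3 tested contractile markers over the 13 libraries, out of 12226 with a mean of at least 1 CPM, were Ccn3, a matricellular protein gene, at a correlation of 0.967, Myl9, the smooth muscle regulatory light chain, at 0.964, Lmod1, leiomodin, at 0.963, the integrin gene Itga8 at 0.961 and Kcnab1, a potassium channel beta subunit, at 0.959. Ccn3 had 28.995 CPM in G-line HOM replicate 1, 15.5 CPM in A-line HET replicate 3 and 14.2 CPM in WT replicate 2, and 2.75 CPM or less elsewhere. Over the 10 libraries without atrial transcripts the same correlations were 0.551, 0.494, 0.590, 0.191 and 0.363. For the mean of the other 6 markers the likest genes were Sema4b (0.932), Als2cl (0.917), Tie1 (0.911), Ubxn6 (0.903) and Sys1 (0.893), with 0.909 to 0.952 over the 10 libraries. Those 6 markers did not vary as 1 set. Kcnj8 and Abcc9 correlated at 0.889, but Cspg4 had -0.850 with Abcc9 and -0.752 with Kcnj8. Likeness to their mean is therefore not likeness to pericyte or channel genes as a set.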

How the data were processed

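Total RNA was extracted with TRIzol from left ventricle, DNase-treated and made into Illumina TruSeq total RNA Gold libraries, per the labels' protocols. Reads went through bcl2fastq 2.20.0.422, Trimmomatic 0.39 and STAR 2.7.4a on mm39 (GRCm39), as the submitters' processing notes list. Raw counts by gene symbol were deposited by the authors in 3 tables and were not altered. Which program, annotation and strand setting made the counts is not given in the sources used here. For overlapping genes (Tagln and Pcsk7, Abcc9 and 5330439B14Rik, Notch3 and Gm38585 or Gm41568) the origin of shared reads can therefore not be told apart.

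Groups came from the sample titles. Genes needed 0.422 CPM (10 counts in the median library) in at least 3 libraries and a total of at least 15 counts, which left 17588. One mean per group was fitted over 13 libraries with edgeR 4.0.16's robust quasi-likelihood method and TMM factors (R 4.3.3, limma 3.58.1, 8 residual degrees of freedom, common biological variation 17.1%). F tests were two-sided. The Benjamini-Hochberg method adjusted p over the 17588 genes, with calls under 0.05. Every adjusted p in the text is from this kind of test unless DESeq2 is named. Those of an alternative are from its own fit, adjusted over the genes tested in it (16813 without the libraries with atrial transcripts). CPM values were computed here from the counts, and log2 fold changes are given ± SE. The fit was also run on simulated data. These set no library apart by atrial transcripts and held no shared libraries, so they do not bear on either doubt.

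The 10 markers, the other gene lists, the alternatives and the tests were chosen with earlier results of these data known. The text names all 10 markers. From each other list it names up to 4 genes with the smallest adjusted p in G-line HOM against WT. It adds the 5 genes most correlated with each set of markers. Up to 2 of the highest genes not called were also picked per list, but few are given values above. Among them were Flna (0.34 ± 0.31, adjusted p = 0.477), Filip1l (0.08 ± 0.11, 0.667) and Fap (-0.17 ± 0.17, 0.495) in G-line HOM by edgeR. Emcn, Ednra and Pdgfd, called in other comparisons, and Tpm2 and Vwf were named after their values were seen. So were Col1a1, Thbs4, Ltbp2, Tcf21, Myh6, Ryr2, Pln, Tnnc1, Steap4 and Tbx18. Alternatives were DESeq2 1.42.0, its size factors in edgeR, 2 other filters, only the groups compared, a replicate block, the shared libraries as A-line HOM or left out, omission of the atrial-transcript libraries (those with at least 10 CPM of Myl7), and each library left out. The markers' medians and WT levels per kilobase without the atrial-transcript libraries, and list calls with the shared libraries moved or left out, were added after seeing the data. Same-numbered libraries did not deviate together (correlations of -0.296 to 0.189 over 18 pairs, 4 of them above 0.1), so numbers were not taken as pairs.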

Additional observations from a re-analysis of the deposited data

How the results depend on the processing

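Abcc9 in G-line HOM kept its direction and call in all 15 alternatives, and its calls in G-line HET and A-line HET were each lost in 1, the shared libraries as A-line HOM. The number of markers called in G-line HET against WT, 2 as reported, was 1 without the filter, 1 with the replicate block, 4 with only the groups compared (Cspg4 and Notch3 added), 3 by DESeq2 (Cspg4 added), 3 without the libraries with atrial transcripts (Acta2, Cspg4 and Abcc9, with Kcnj8 lost at an adjusted p of 0.0639), 0 with the shared libraries as A-line HOM and 1 with them left out. The replicate block lost Kcnj8 there (adjusted p = 0.0683) and Cspg4 in G-line HOM (0.074), and no other marker call. In G-line HOM against WT the number was 1 in place of 4 with the shared libraries as A-line HOM or left out. In A-line HOM against WT it was 1 in place of 0 with only the groups compared and by DESeq2, and 2 without the libraries with atrial transcripts. In A-line HET against WT it was 0 in place of 1 with the shared libraries as A-line HOM and 2 without the libraries with atrial transcripts. In G-line HOM against G-line HET it was 1 in place of 0 without the filter and by DESeq2. Leaving out 1 library gave 1 in G-line HET, 0 to 1 in A-line HOM and 0 to 2 in G-line HOM against G-line HET. The cause of these changes was not tested; with the shared libraries moved or removed WT holds 1 library.

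Reversed log2 fold changes concerned markers that were not called in either fit. With the shared libraries as A-line HOM these were, in A-line HOM, Acta2 at 0.055, Myh11 at 0.60, Cnn1 at 1.62, Pdgfrb at 0.053 and Kcnj8 at 0.060, and in G-line HET Cnn1 at 0.45. With them left out Cnn1 was 0.44 in G-line HET and 0.054 in A-line HOM. Without the libraries with atrial transcripts Myh11 was -0.14 in G-line HOM, 0.15 in G-line HET and -0.10 in A-line HET, Cnn1 was 0.60 in G-line HET and 0.21 in A-line HOM, Notch3 was 0.0017 in A-line HOM, and Abcc9 was 0.072 in A-line HET against G-line HET. Notch3 was 0.0029 in A-line HOM with the stricter filter, and Myh11 was -0.032 in G-line HOM with the replicate block. Leaving out 1 library gave, in G-line HOM, -1.67 to 0.00047 for Acta2, -0.99 to 0.99 for Myh11, -1.47 to 2.31 for Cnn1 and -0.17 to 0.088 for Notch3. In G-line HET it gave -1.02 to 0.15 for Myh11 and -1.60 to 0.60 for Cnn1, in A-line HOM -1.99 to 0.21 for Cnn1, and in A-line HET -0.95 to 1.24 for Myh11 and -1.48 to 2.46 for Cnn1. For Abcc9 in A-line HET against G-line HET it gave -0.16 to 0.10. The Acta2 per Myh11 log2 ratio was -1.21 without the libraries with atrial transcripts, and Abcc9 per Kcnj8 was -0.85 without the shared libraries. Cnn1, at 6 to 344 reads per library, is limited by depth.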

Other observations

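Between G-line HOM and G-line HET, where edgeR called 0 of the 9 tested markers and DESeq2 called Rgs5, some genes of the contractile and pericyte lists were called. In this comparison the list of 17 other contractile genes held 1 called higher and 2 called lower, with 6.22% of all genes called higher and 8.42% lower. The list's share is near that over all genes. Smtn, smoothelin, averaged 43.4 CPM in G-line HOM and 64.3 CPM in G-line HET (log2 fold change -0.57 ± 0.10, adjusted p = 0.00308). Synpo2, the actin-bundling synaptopodin 2, averaged 77.0 CPM in G-line HOM and 121.7 CPM in G-line HET (-0.66 ± 0.11, adjusted p = 0.00288), and Cald1, caldesmon, 74.0 CPM in G-line HOM and 48.1 CPM in G-line HET (0.62 ± 0.17, adjusted p = 0.0297).

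Of the 16 other pericyte genes 1 rose and 2 fell, also near the share over all genes. Vtn, vitronectin, averaged 10.6 CPM in G-line HOM and 19.2 CPM in G-line HET (-0.85 ± 0.18, adjusted p = 0.0097), and Ednra, the endothelin A receptor, 24.7 CPM in G-line HOM and 30.9 CPM in G-line HET (-0.33 ± 0.09, adjusted p = 0.0252). Tbx18, a transcription factor of mural cells, averaged 12.9 CPM in G-line HOM and 7.52 CPM in G-line HET (0.78 ± 0.22, adjusted p = 0.0292). Srf averaged 34.1 CPM in G-line HOM and 45.6 CPM in G-line HET (-0.42 ± 0.11, adjusted p = 0.0241). Without the libraries with atrial transcripts Cald1 was not called (adjusted p = 0.0915). With the shared libraries as A-line HOM Cald1 (0.0504) and Tbx18 (0.0538) were not called, and with them left out Ednra was not (0.0524). Adjusted p-values are from edgeR's quasi-likelihood test over all genes, and these genes were named after their values were seen.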
